A study of Mus musculus with 6 samples.

Results

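The 9 genes described here, Tbx18, Tbx2, Foxf2, Foxc1, Foxs1, Ebf1, Mef2c, Zic1 and Prrx1, encode DNA-binding transcription factors of mural and mesenchymal cells, and were taken by name as 9 of the 23494 genes with counts in 3 tables of UMI counts from sorted mouse cortical cells. All 9 were counted in the table of the naïve cells (19679 genes), in that of the NG2 line (22833 genes) and in that of the Tbx18 line (21008 genes). The question was how the level of each factor differed between pericytes, smooth muscle cells and fibroblasts, between the genetic lines used to mark the cells, and between naïve and injured cortex.

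The cells came from mice of the lines Tbx18-CreERT2/Ai14-flx, called the Tbx18 line here, and NG2-Cre-ERT2/Ai14-flx, called the NG2 line, aged 3 to 4 months. In both lines tamoxifen switched on the red reporter tdTomato of the Ai14 allele, permanently, in cells that then had Cre activity, and live tdT+/DAPI- cells of the cerebral cortex were sorted into droplet libraries. Each line gave 3 libraries: naïve cortex, physical injury (an injection of saline) and ischemic injury (an injection of endothelin-1 with the nitric oxide synthase inhibitor L-NAME). Injury followed tamoxifen by 7 days, and the injured cortex was collected 3 days later. The naïve mice received tamoxifen as well. The NG2 line carries its Cre in a transgene of the Cspg4 gene, which is active in pericytes, smooth muscle and oligodendrocyte precursors, whereas the Cre of the Tbx18 line is under the control of Tbx18, which is itself 1 of the 9 factors. Each library pooled several animals and there was 1 library per group, so no test between groups could be made. Every interval below covers counting error alone.

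The libraries held 4306 naïve, 2563 physically injured and 3586 ischemic cells in the NG2 line and 686, 3845 and 2047 cells in the Tbx18 line. Total counts ran from 3153996 to 54276245 UMIs per library, and the median cell had 2806 to 9232 UMIs. No pair of libraries shared more than 5 cell barcodes. Cell classes follow the deposited clusters. Pericytes of the NG2 line (clusters 0, 1, 2 and 10) numbered 3287 in the naïve, 1129 in the physical and 1128 in the ischemic library, and smooth muscle cells 503, 242 and 277. In the Tbx18 line there were 226, 433 and 86 pericytes and 63, 827 and 47 smooth muscle cells. The defining markers fitted both names: the summed level of 9 pericyte markers was 20007 to 37276 CPM in the pericytes and 3352 to 9216 CPM in smooth muscle, and that of 6 contractile markers was 19264 to 30388 CPM in smooth muscle and 130 to 3648 CPM in pericytes. CPM gives the UMIs of a gene, summed over the cells of a class, on the scale of the total UMIs of those cells. Since the clusters were formed on expression, a contrast between clusters is a description.

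Mural cells wrap the vessels of the brain: smooth muscle cells cover arteries and arterioles with contractile rings, pericytes cover capillaries, and fibroblasts sit around larger vessels and in the meninges. In the forebrain much of this lineage derives from the neural crest. Forkhead factors are known there as regulators of mural number and of the blood-brain barrier, T-box factors as markers and regulators of the mural state, and Prrx1 as a factor of loose mesenchyme and of tissue under repair.

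Promoters are shown for Foxf2, Zic1 and Tbx18, since Foxf2 and Zic1 set pericytes apart from smooth muscle most strongly and Tbx18 drives the Cre of a line. The stretches of Foxf2 and Tbx18 end at the base before the start of transcription in RefSeq (GRCm38.p6), and that of Zic1 stops 42 bases short of it, where an annotated UTR begins, and holds 26 CpG. All are read 5′ to 3′ on the strand of the gene, with every CpG in capitals. Foxf2 is shown at chr13:31625566-31625815 on the plus strand, Tbx18 at chr9:87731261-87731510 on the minus strand, and Zic1 at chr9:91365811-91366018 on the minus strand.
Foxf2: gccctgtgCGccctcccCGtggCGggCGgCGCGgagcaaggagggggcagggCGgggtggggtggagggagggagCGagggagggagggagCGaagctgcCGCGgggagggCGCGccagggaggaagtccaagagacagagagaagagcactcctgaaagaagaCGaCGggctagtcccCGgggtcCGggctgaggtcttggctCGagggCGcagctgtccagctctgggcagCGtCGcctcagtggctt
Tbx18: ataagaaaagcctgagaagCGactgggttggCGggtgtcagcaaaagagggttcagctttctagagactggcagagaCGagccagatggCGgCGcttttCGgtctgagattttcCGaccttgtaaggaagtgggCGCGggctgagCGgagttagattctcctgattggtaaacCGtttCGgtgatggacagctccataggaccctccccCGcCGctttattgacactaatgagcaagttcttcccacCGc
Zic1: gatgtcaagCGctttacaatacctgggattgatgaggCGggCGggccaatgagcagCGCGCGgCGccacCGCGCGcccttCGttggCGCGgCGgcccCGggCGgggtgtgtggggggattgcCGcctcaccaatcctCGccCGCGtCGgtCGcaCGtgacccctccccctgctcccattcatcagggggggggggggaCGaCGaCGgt

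In the 250 bases before the start, Foxc1 held 29 CpG, Zic1 27, Foxf2 21 and Tbx18 15, against a median of 6 over 32851 mouse promoters. At least as many CpG were found in 6.78% of promoters for Foxc1, in 8.56% for Zic1, in 16.3% for Foxf2 and in 27.3% for Tbx18. Prrx1 held 4 CpG, and the 3 start sites of Mef2c held 1, 4 and 6. Promoters of 7 of the 9 factors were matched, and Tbx2 and Foxs1 are named only.

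Letters of 7 motifs were searched on both strands of these windows: the forkhead motif GTAAACA (in 3.17% of promoters), the T-box motif AGGTGTGA (1.12%), the palindromic EBF motif (0.779%), the A/T-rich MEF2 motif (3.20%), the ZIC motif CAGCAGG (8.44%), the homeobox motif TAATTA (4.84%) and TATAAA (12.4%). Matches were found in the windows of Mef2c, with TTTATA, which is TATAAA on the other strand, at 107 and at 22 bases before 2 of its starts, TAATTA at 102 and CCTGCTG, the ZIC motif of the other strand, at 106 bases, and of Prrx1, with TAATTA at 173 bases. The windows of Foxf2, Zic1, Tbx18, Foxc1 and Ebf1 held none of these letters.

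On GRCm38 (GENCODE M21), Foxf2 (chr13:31625816-31631403) and Foxc1 (chr13:31806633-31812476) lie on the plus strand with 175229 bases between them. Mef2c is on the same chromosome (chr13:83504034-83667080, plus). Tbx18 (chr9:87702800-87731260) and Zic1 (chr9:91358058-91365810) are both on the minus strand of chromosome 9, and the span of Zic1 overlaps that of Zic4 on the other strand. Ebf1 (chr11:44617317-45008091) and Tbx2 (chr11:85832551-85841948) are on the plus strand of chromosome 11, Foxs1 has 1 exon (chr2:152931898-152933208, minus), and Prrx1 lies at chr1:163245119-163313710 on the minus strand.

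**Figure D1:**
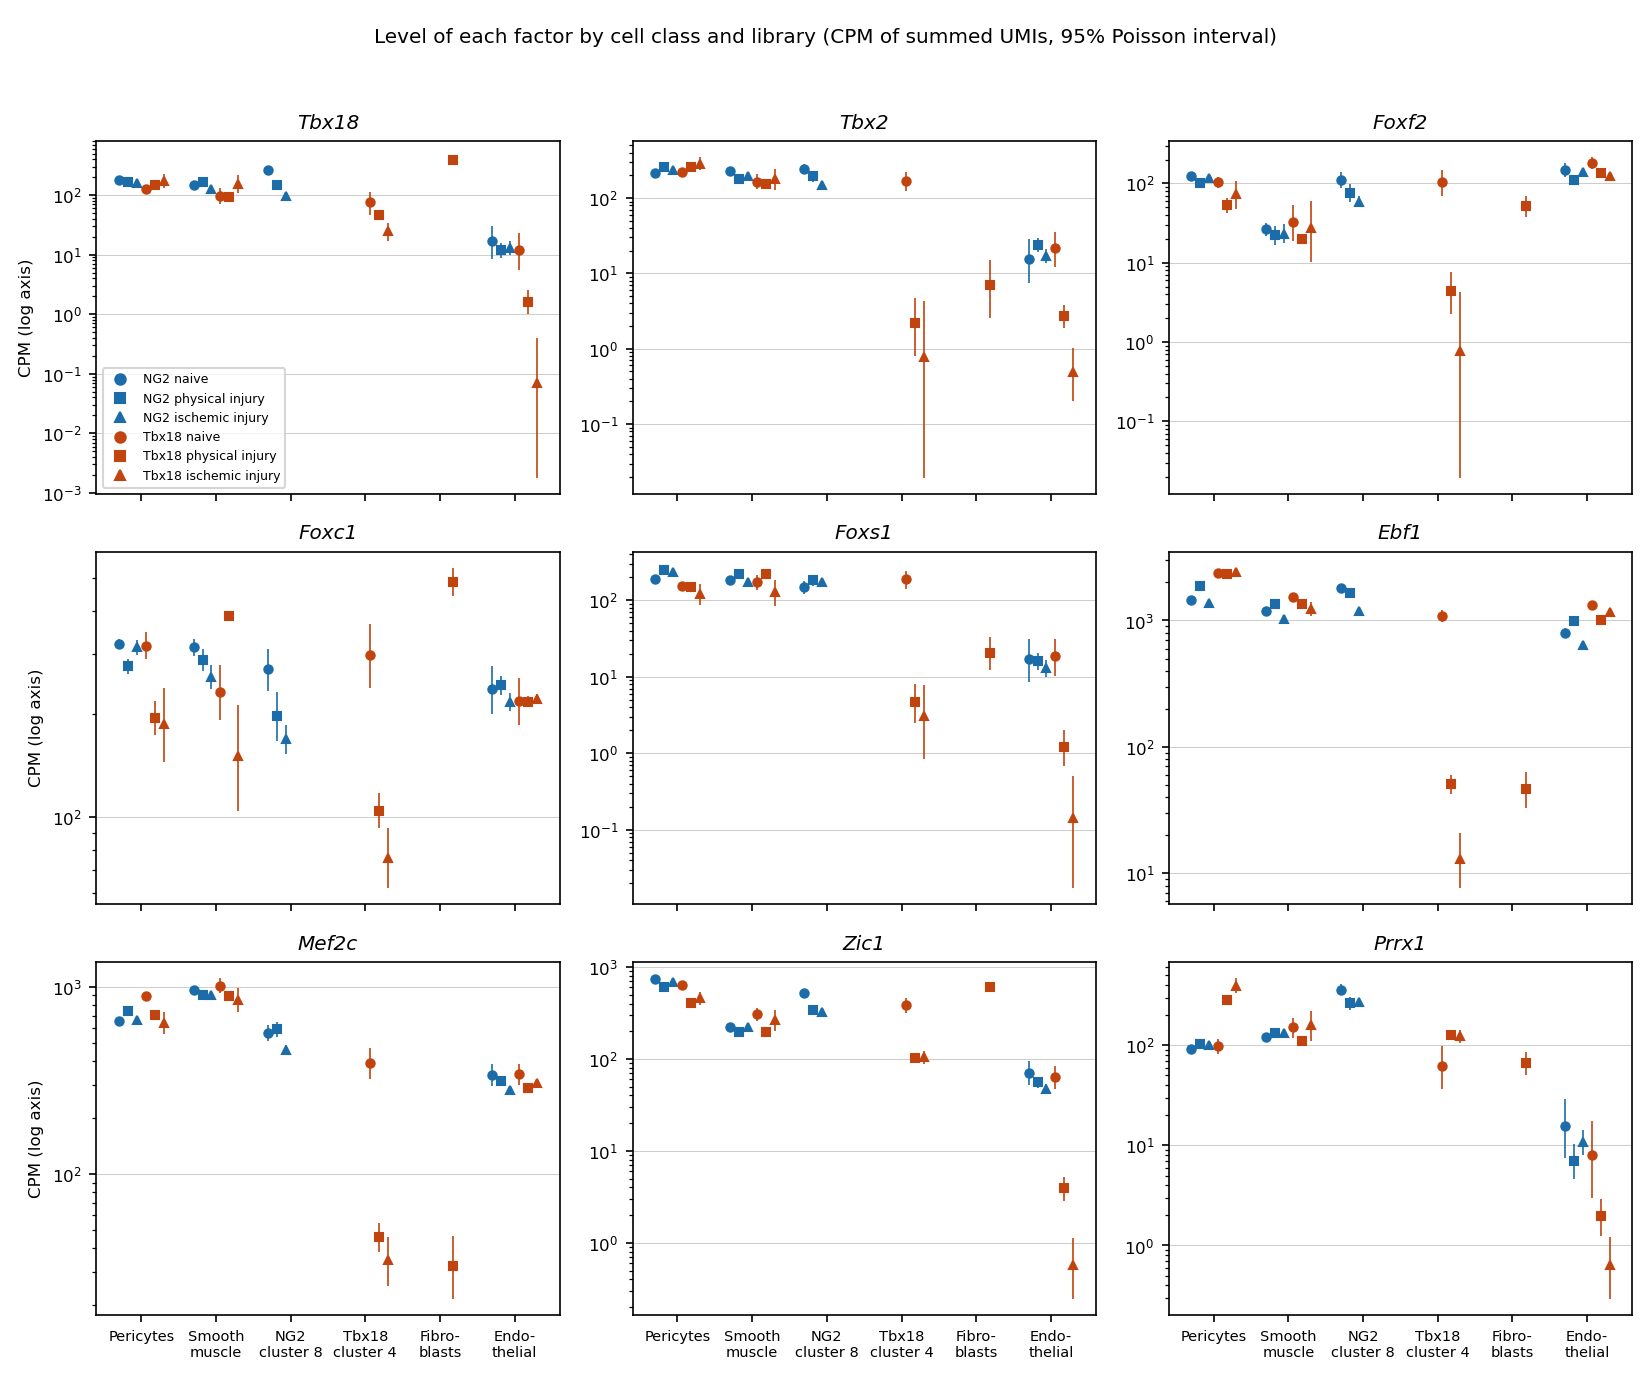
Level of each of the 9 factors (CPM of summed UMIs, log axis, with the 95% Poisson interval) by cell class, 1 panel per factor, with circles for naïve, squares for physical and triangles for ischemic libraries, blue for the NG2 line and orange for the Tbx18 line. Foxf2 and Zic1 lie higher in pericytes than in smooth muscle, and Tbx2, Foxs1, Ebf1 and Mef2c lie far lower in fibroblasts than in mural cells.

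Pericytes were set apart from smooth muscle by Foxf2 and Zic1, and the other 7 factors were within 2-fold between the classes in the NG2 line. Foxf2, a forkhead factor known from brain pericytes and endothelium as a regulator of the blood-brain barrier, and Zic1, a zinc finger factor of the dorsal neural tube, were at least 2-fold higher in pericytes in all 5 libraries with at least 50 cells of each class. The library left out, Tbx18 ischemic injury, had 47 smooth muscle cells, and Zic1 was under 2-fold there. Leaving it out was chosen after seeing the data. Of the genes tested, 7.03% were at least 2-fold higher in pericytes in all 5 libraries and 3.54% were lower, and no factor of the 9 was lower.

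Foxf2 had 122, 101 and 118 CPM in pericytes of the naïve, physical and ischemic NG2 libraries and 26.5, 22.2 and 23.4 CPM in smooth muscle. The ratios were 4.62 (95% interval 3.78 to 5.69), 4.52 (3.41 to 6.09) and 5.03 (3.80 to 6.78), so the level in pericytes lay above that in smooth muscle in every NG2 library. In the Tbx18 line Foxf2 had 103, 53.2 and 73.8 CPM in pericytes and 32.7, 19.9 and 27.5 CPM in smooth muscle, with ratios of 3.15 (1.88 to 5.65), 2.67 (2.02 to 3.50) and 2.69 (1.08 to 7.98).

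Zic1 had 733, 609 and 680 CPM in NG2-line pericytes and 221, 194 and 224 CPM in smooth muscle, a ratio of 3.31 (3.09 to 3.56) in the naïve library. The ratio was smaller in the Tbx18 line. There, Zic1 had 635, 402 and 457 CPM in pericytes and 308, 197 and 266 CPM in smooth muscle, with ratios of 2.06 (1.73 to 2.46), 2.04 (1.85 to 2.24) and 1.72 (1.27 to 2.37). With TMM factors, which set the typical gene of both classes level, the pericyte over smooth muscle ratios shifted down by 0.18 to 0.42 (log2). Zic1 was then under 2-fold in all 3 Tbx18 libraries (log2 ratios of 0.85, 0.58 and 0.59) as was Foxf2 in the physical injury library (0.95), while both stayed above 2-fold in the NG2 line, at 1.86, 1.81 and 2.00 for Foxf2 and 1.41, 1.32 and 1.31 for Zic1.

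The shares of cells followed the levels. With each cell of the naïve NG2 library thinned to 1000 UMIs, 10.8% of pericytes (9.73 to 11.9) and 3.03% of smooth muscle cells (1.71 to 4.95) had a UMI of Foxf2, and 49.4% (47.7 to 51.1) and 19.6% (16.2 to 23.4) had one of Zic1. Thinning left out 40 pericytes and 8 smooth muscle cells. Without thinning, the shares were 35.3% and 17.3% for Foxf2 and 87.5% and 74.8% for Zic1, at median depths of 3810 UMIs in pericytes and 7909 in smooth muscle. Oligodendrocytes of the NG2 line were assumed to lack these factors, which was not tested, and had median depths of 13252 to 29600.5 UMIs. For each factor taken singly, at most 2.02% of their thinned cells had a UMI. None of the 9 was counted in 96.0%, 98.3% and 97.7% of these cells in the naïve, physical and ischemic libraries. The interval of the Foxf2 share in smooth muscle includes 2.02%, and the other 3 thinned shares lie above it.

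Mef2c, a MADS-box factor that takes part in smooth muscle and microglial gene programmes, went the other way, but by less than 2-fold. It had 659, 747 and 663 CPM in NG2-line pericytes against 959, 904 and 901 CPM in smooth muscle, and 890, 711 and 644 CPM against 1016, 893 and 852 CPM in the Tbx18 line. Its level was lower in pericytes in 6 of 6 libraries, by a ratio of 0.688 (0.662 to 0.715) in the naïve NG2 library to 0.875 in the naïve Tbx18 library, and with TMM factors too.

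Ebf1, a helix-loop-helix factor of B cells and stromal cells, had 1450, 1881 and 1375 CPM in NG2-line pericytes and 1197, 1339 and 1025 CPM in smooth muscle. In the Tbx18 line it had 2371, 2334 and 2438 CPM in pericytes and 1535, 1338 and 1232 CPM in smooth muscle, and the ratio reached 1.98 (1.72 to 2.28) in the ischemic library. Ebf1 was thus higher in pericytes in 6 of 6 libraries by library totals, but with TMM factors the naïve NG2 ratio turned to -0.04 (log2).

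The T-box factors barely told the classes apart. Tbx18 had 180, 165 and 161 CPM in NG2-line pericytes and 146, 163 and 126 CPM in smooth muscle, and 125, 146 and 173 CPM against 98.0, 91.5 and 156 CPM in the Tbx18 line. Its largest ratio was 1.59 (1.36 to 1.85), in the physical injury library of the Tbx18 line. With TMM factors its sign turned in the naïve and the physical NG2 libraries (-0.01 and -0.31, log2) and in the ischemic Tbx18 library (-0.03). Tbx2, a repressor of the same family, had 217, 259 and 234 CPM in NG2-line pericytes and 228, 177 and 194 CPM in smooth muscle. In the Tbx18 line it had 220, 256 and 287 CPM against 165, 154 and 179 CPM.

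Foxc1 and Foxs1, forkhead factors of neural crest-derived mural cells, were also near even in the NG2 line. Foxc1 had 322, 276 and 314 CPM in pericytes and 314, 289 and 257 CPM in smooth muscle of that line, and Foxs1 had 192, 253 and 238 CPM against 186, 220 and 176 CPM. The physical injury library of the Tbx18 line stood apart, with 195 CPM of Foxc1 in pericytes and 389 CPM in smooth muscle, a ratio of 0.503 (0.444 to 0.567), and with 150 and 224 CPM of Foxs1, a ratio of 0.671 (0.581 to 0.771). With TMM factors both were over 2-fold lower in those pericytes (log2 ratios of -1.43 and -1.01). In the naïve NG2 library the small gaps of Foxc1 and Foxs1 then turned sign (-0.28 and -0.27). So did those of Foxs1 after physical (-0.12) and of Tbx2 and Foxc1 after ischemic injury (-0.02 and -0.01) in that line.

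Prrx1, a paired-type homeobox factor of mesenchyme, was the factor whose order of pericytes and smooth muscle turned most widely between libraries. It had 91.6, 102 and 102 CPM in NG2-line pericytes against 122, 132 and 131 CPM in smooth muscle, and 97.5 against 151 CPM in the naïve Tbx18 library, where the ratio was 0.646 (0.485 to 0.866). After physical injury in the Tbx18 line it had 281 CPM in pericytes and 110 CPM in smooth muscle, a ratio of 2.55 (2.27 to 2.87; log2 ratio 0.90 with TMM factors), and after ischemic injury 394 and 160 CPM, a ratio of 2.46 (1.69 to 3.68). Foxc1 turned as well, with 317 CPM in pericytes and 233 CPM in smooth muscle of the naïve Tbx18 library, a ratio of 1.36 (1.11 to 1.69), against its ratio of 0.503 after physical injury.

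**Figure D2:**
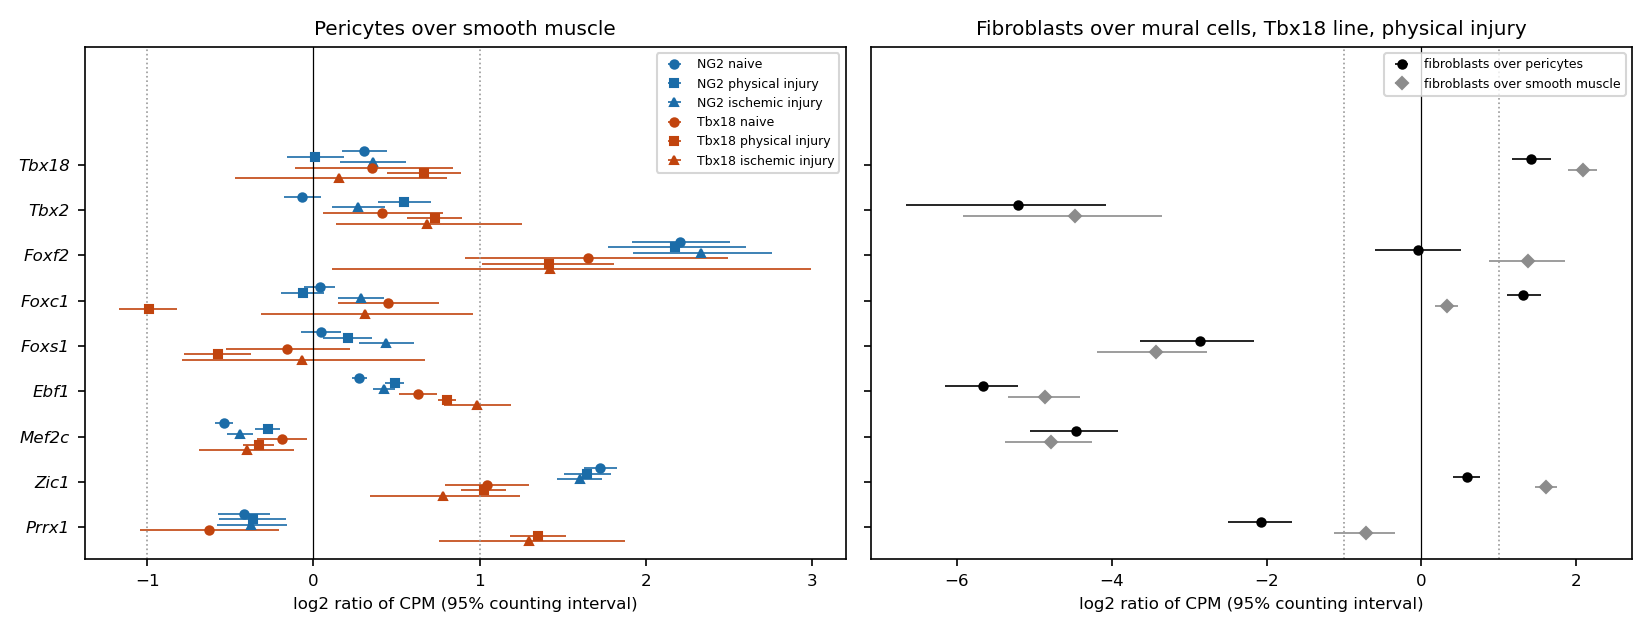
Left, log2 ratio of the CPM in pericytes over that in smooth muscle for each factor and library; right, log2 ratio of fibroblasts over pericytes (black) and over smooth muscle (grey) in the Tbx18 line after physical injury. Bars are 95% counting intervals, dotted lines mark 2-fold, and Foxf2 and Zic1 lie furthest to the right for the NG2 line in the left panel, with ratios of 4.62 and 3.31 in its naïve library, while Prrx1 lies right of Zic1 in the injured Tbx18 libraries.

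Taken library by library, 2 of 9 factors were at least 2-fold higher in pericytes in each of the 3 NG2 libraries, where 15.3%, 20.0% and 17.8% of all genes were, and 2, 3 and 2 factors were in the naïve, physical and ischemic Tbx18 libraries, against 20.5%, 19.4% and 21.6% of genes. The share of the 9 was thus near that of all genes. The median log2 ratio of the 9 was 0.0439 in the naïve NG2 library, where that of all genes was 0.326, and 0.728 after physical injury in the Tbx18 line, where that of all genes was 0.325.

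Of 23 relatives in the same families, none was at least 2-fold higher in pericytes in all 5 libraries and 1, Foxc2, was lower, 14 were neither and 8 had too few counts. Foxd1 and Foxq1, named after their values were seen, came close, with median log2 ratios of 1.48 and 2.56 and lowest ones of 0.93 and 0.94. Of 26 other mural and mesenchymal factors, 1 was higher in pericytes, Lef1 of the Wnt pathway, with a median log2 ratio of 3.34. There were 2 lower: Myocd, the cofactor that switches on contractile genes, at a median of -6.95, and Hes1, a Notch target, at -1.35. The log2 ratio of Myocd was only -1.41 in the physical injury library of the Tbx18 line, at 102 CPM in pericytes and 273 CPM in smooth muscle.

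Fibroblasts carried a different set of the 9 factors. They were cluster 5 of the Tbx18 line, with 116 cells after physical injury and 5 naïve and 10 ischemic cells, so that they are described in the physical injury library. Their 8 fibroblast markers summed to 12669 CPM, with Dcn at 5521 and Slc6a13 at 2014 CPM, against 636 CPM in pericytes of that library, and their pericyte markers to 3487 CPM. Against pericytes, 2 factors were at least 2-fold higher, where 14.3% of all genes were, and 5 were lower, where 14.1% of all genes were. The median log2 ratio was -2.05 over the 9 and 0.00634 over all genes.

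Tbx18 was at 390 CPM in fibroblasts, 146 CPM in pericytes and 91.5 CPM in smooth muscle, a ratio of 2.68 (2.25 to 3.19) to pericytes and of 4.26 (3.74 to 4.84) to smooth muscle. Foxc1, which is known to be needed for the meninges, was at 488 CPM in fibroblasts against 195 CPM in pericytes, a ratio of 2.50 (2.15 to 2.91). Zic1 was at 603 CPM in fibroblasts, 402 CPM in pericytes and 197 CPM in smooth muscle, a ratio of 1.50 (1.33 to 1.69) to pericytes and of 3.06 (2.77 to 3.37) to smooth muscle. By library totals, these 3 factors were thus highest in fibroblasts among the 3 classes of this library.

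Tbx2 and Ebf1 showed the widest gaps in the other direction. Tbx2 was at 6.92 CPM in fibroblasts and 256 CPM in pericytes, Ebf1 at 46.1 CPM against 2334 CPM, and Mef2c at 32.3 CPM against 711 CPM. Foxs1 was at 20.8 CPM against 150 CPM, a ratio of 0.138 (0.0804 to 0.223). In pericytes these 4 factors were 37.0-fold, 50.6-fold, 22.0-fold and 7.24-fold higher.

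Prrx1 was lower in fibroblasts than in either mural class. It had 66.9 CPM in fibroblasts, 281 CPM in pericytes and 110 CPM in smooth muscle, a ratio of 0.238 (0.178 to 0.314) to pericytes and of 0.607 to smooth muscle. Foxf2 had 51.9 CPM in fibroblasts and 53.2 CPM in pericytes, a ratio of 0.975 (0.661 to 1.42), and was 2.60-fold (1.83 to 3.63) above smooth muscle. Against smooth muscle, 3 factors were at least 2-fold higher in fibroblasts, where 27.3% of genes were, and 4 lower, where 15.2% were. TMM factors moved these ratios to smooth muscle by -0.52 (log2), which put Foxf2 under 2-fold (0.81) and Prrx1 over 2-fold lower (-1.25), and left Foxc1, at 488 and 389 CPM, lower rather than higher in fibroblasts (-0.22).

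With cells thinned to 1000 UMIs, 27.4% of fibroblasts (19.5 to 36.6) had a UMI of Tbx18, 32.7% of Foxc1 and 41.6% of Zic1. The shares were 4.42% for Foxf2, 3.54% for Prrx1 and 1.77% each for Foxs1, Ebf1 and Mef2c. In oligodendrocytes of the NG2 line, and so of other libraries, the share of a single factor reached 2.02%. Whether the low shares in fibroblasts are background was not tested. Few cells of this cluster came from the other libraries. The 5 naïve ones, which also held 9872 CPM of pericyte markers, had 801 CPM of Tbx18, 449 CPM of Foxc1 and 1058 CPM of Zic1, and the 10 ischemic ones 428 CPM of Tbx18, 379 CPM of Foxc1 and 599 CPM of Zic1.

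The high factors met in the same fibroblasts. Foxc1 was counted in 87.4% (79.4 to 93.1) of the 103 fibroblasts with a UMI of Zic1 and in 30.8% (9.09 to 61.4) of the 13 without, and Tbx18 in 74.8% and 23.1%. The cells with Zic1 were deeper, with a median of 7826 UMIs against 2465, and the part of depth in this gap was not tested. Pericytes of the same library showed a gap too, with Foxc1 in 51.1% of cells with Zic1 and 21.4% without. Their median depths were 3919 and 1393.5 UMIs.

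Relatives of these factors in the same families also went both ways, but more of them were higher than lower in fibroblasts. Of the 23 relatives, 7 were at least 2-fold higher in fibroblasts than in pericytes, 3 were lower, 9 were neither and 4 had too few counts. Over all genes, 14.3% were higher and 14.1% lower. The widest gaps upward were those of Ebf2, at 94.6 CPM in fibroblasts and 4.72 CPM in pericytes, and Prrx2, at 42.7 and 3.37 CPM. Relative to pericytes, Ebf2 and Prrx2 were thus higher in fibroblasts and Ebf1 and Prrx1 lower. Within fibroblasts Prrx2 still lay below Prrx1, which was at 66.9 CPM. Ebf3, with no counts in fibroblasts and 22.9 CPM in pericytes, and Tbx3, a close relative of Tbx2, at 28.8 and 128 CPM, went the other way. Of the 26 other factors 2 were higher, Osr1 (36.9 and 1.35 CPM) and Tead1 (274 and 121 CPM), and 8 were lower, among them Myocd (1.15 and 102 CPM), 9 were neither and 7 had too few counts. Pericytes of the NG2 libraries and the naïve Tbx18 library had only 0.369 to 5.38 CPM of Myocd. Of the 433 pericytes of the physical injury Tbx18 library, 276 held fewer than 5 UMIs of contractile markers. The part of the other cells in its Myocd level was not tested.

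Cluster 8 of the NG2 line, which the study names mesenchymal-like pericytes, was set apart from the pericytes by Prrx1. It had 177 naïve, 81 physically injured and 240 ischemic cells, and its leading genes were Il11, Cxcl1 and Rgs16, with the fibroblast markers Dcn and Col3a1 also among its top 10. Its pericyte markers summed to 25984, 26518 and 23740 CPM, and its fibroblast markers to 767, 1105 and 771 CPM, with Dcn at 120, 292 and 352 CPM, Col3a1 at 357, 474 and 164 CPM, Col1a1 at 0 counts in the naïve cells and Lum at 0 in the naïve and the physically injured cells. By the markers scored relative to the other clusters of its table, the cluster came nearest to fibroblasts. That score sets each marker against its highest cluster, and the study names no fibroblast cluster in the NG2 line. It therefore cannot say whether the cells reach the marker levels of fibroblasts. By summed level their pericyte markers lay far above their fibroblast markers. The cluster is called by its number here.

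Prrx1 was at 360, 262 and 271 CPM in cluster 8 and at 91.6, 102 and 102 CPM in the NG2-line pericytes. The ratios were 3.93 (3.43 to 4.49), 2.56 (2.17 to 3.02) and 2.67 (2.37 to 3.01). Prrx1 was the only 1 of the 9 to be at least 2-fold higher there, where 6.39%, 7.39% and 6.75% of all genes were. Of thinned cells, 29.3%, 18.8% and 21.5% of cluster 8 had a UMI of Prrx1, against 7.70%, 11.1% and 8.99% of the pericytes.

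Zic1 was lower in cluster 8, at 517, 337 and 327 CPM, and in the ischemic library its ratio to the pericytes was 0.481 (0.444 to 0.519), the 1 factor at least 2-fold lower, where 10.1% of genes were. With TMM factors it was under 2-fold there, at -0.93 (log2). Tbx18 was at 269 CPM in naïve, 150 CPM in physically injured and 98.5 CPM in ischemic cells of this cluster. The ratio to naïve was 0.558 (0.439 to 0.705) after physical and 0.366 (0.302 to 0.443) after ischemic injury, and the ischemic value made Tbx18 the 1 factor at least 2-fold lower, where 11.3% of genes were. Both injured libraries are set against the same naïve cells.

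Within cluster 8, Foxf2 had 111, 76.4 and 59.2 CPM, Foxc1 271, 197 and 169 CPM, and Ebf1 1807, 1647 and 1185 CPM in the naïve, physical and ischemic cells. Foxs1 did not follow them, at 149, 184 and 173 CPM. Alongside, Nnmt and Rgs16, by which the study names these cells, summed to 579, 690 and 413 CPM, and the contractile markers to 743, 3448 and 1574 CPM. The study chose those markers on these samples. Median depth was 4026, 7733 and 8444 UMIs. The part of these shifts in the levels of the factors was not tested.

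In NG2-line pericytes and smooth muscle, injury moved none of the 9 factors by 2-fold. Over all genes, 1.31% were at least 2-fold apart from naïve, in either direction, in pericytes after physical and 2.56% after ischemic injury, and 3.25% and 3.75% in smooth muscle. The naïve library is shared by these contrasts.

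Foxs1 had 192 CPM in naïve, 253 CPM in physically injured and 238 CPM in ischemic NG2-line pericytes, and its ratios to naïve of 1.32 (1.23 to 1.41) and 1.24 (1.15 to 1.33) were the highest of the 9. Ebf1 had 1450, 1881 and 1375 CPM. It was thus higher after physical injury alone, by 1.30 (1.27 to 1.33), and the ischemic level was 0.731 (0.708 to 0.754) of the physical one. Foxf2 was at 122, 101 and 118 CPM, a ratio of 0.822 (0.744 to 0.906) after physical injury and 0.961 after ischemic injury. Zic1 was at 733, 609 and 680 CPM, and Foxc1 at 322, 276 and 314 CPM, so these 3 were lowest after physical injury. Prrx1 stayed at 91.6, 102 and 102 CPM.

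In NG2-line smooth muscle the widest gap was that of Tbx2, at 228 CPM in naïve, 177 CPM in physically injured and 194 CPM in ischemic cells, a ratio of 0.777 (0.691 to 0.873) after physical injury. Between ischemic and physical injury, none of the 9 was 2-fold apart, where 3.19% of genes were in pericytes and 4.57% in smooth muscle.

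**Figure D3:**
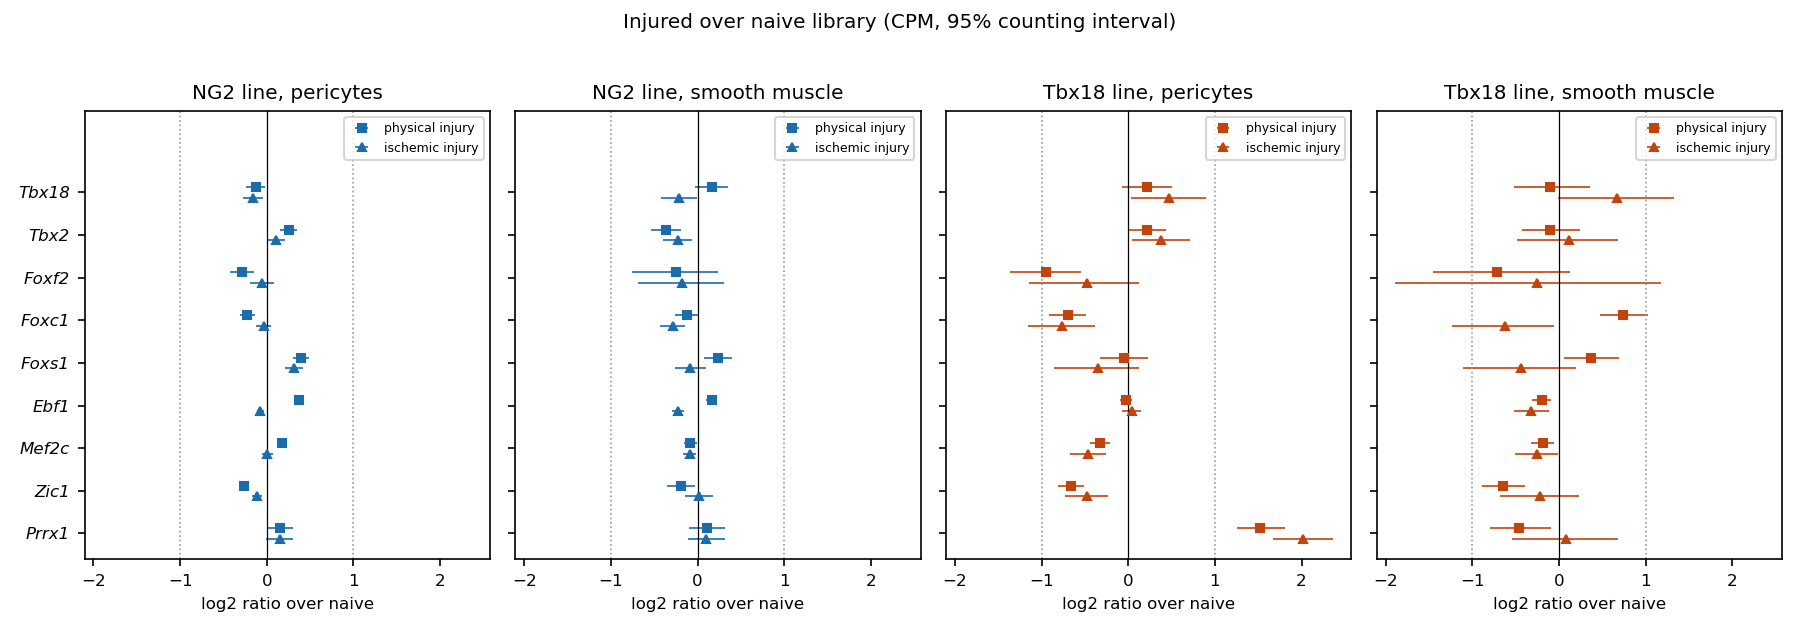
Log2 ratio of the CPM in an injured library over that in the naïve library of the same line, with the 95% counting interval, for the 9 factors in pericytes and smooth muscle of each line (squares physical, triangles ischemic injury; dotted lines at 2-fold). In the NG2 line every factor lies within 2-fold, and in pericytes of the Tbx18 line Prrx1 lies beyond it, at ratios of 2.88 and 4.05.

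Pericytes of the Tbx18 line differed more between naïve and injured cortex over all genes, and of the 9 factors Prrx1 alone reached 2-fold. After physical and ischemic injury, 15.5% and 19.3% of all genes were at least 2-fold from naïve, against 1.31% and 2.56% in NG2-line pericytes. The classes also differ in make-up. The NG2-line pericytes leave out the cells that the study names mesenchymal-like, and it names no such cluster in the Tbx18 line. The part of this in the gap between the lines was not tested. Prrx1 went from 97.5 CPM in naïve to 281 CPM in physically injured and 394 CPM in ischemic pericytes, and the intervals of the naïve and the injured levels did not overlap. The ratios were 2.88 (2.38 to 3.50) and 4.05 (3.18 to 5.14). It was the only factor at least 2-fold higher, where 9.46% and 8.53% of genes were, and none of the 9 was at least 2-fold lower, where 6.0% and 10.7% were. The ischemic level was 1.40 times (1.15 to 1.71) the physical one, and between these injuries none of the 9 was 2-fold apart, where 13.1% of genes were.

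Foxf2, Foxc1 and Zic1 were all lower in the injured pericytes. Foxf2 had 103 CPM in naïve, 53.2 CPM in physically injured and 73.8 CPM in ischemic cells, with ratios of 0.517 (0.389 to 0.683) and 0.717 (0.454 to 1.09). Foxc1 had 317, 195 and 187 CPM, with ratios of 0.615 (0.530 to 0.714) and 0.590 (0.449 to 0.765), and Zic1 had 635, 402 and 457 CPM. Mef2c was at 890, 711 and 644 CPM. Only the ischemic interval of Foxf2 reached 1 among these.

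Tbx18 itself was at 125, 146 and 173 CPM in these pericytes, with ratios to naïve of 1.16 (0.952 to 1.42) and 1.38 (1.02 to 1.86). Tbx2 was at 220, 256 and 287 CPM. Ebf1, at 2371, 2334 and 2438 CPM, barely moved, and Foxs1 was at 155, 150 and 122 CPM.

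Other measures moved with these levels. In the naïve, physically injured and ischemic pericytes of the Tbx18 line, the 9 pericyte markers summed to 31638, 20377 and 20007 CPM, the 6 contractile markers to 298, 3648 and 1288 CPM, the 7 endothelial markers to 168, 911 and 1274 CPM, and Nnmt and Rgs16 to 82.7, 606 and 744 CPM. Median depth was 6547.5, 2540 and 3791.5 UMIs. For Prrx1, smooth muscle of the injured libraries had 110 and 160 CPM and endothelial cells 1.95 and 0.639 CPM. Without pericytes that held at least 5 UMIs of contractile markers, Prrx1 was at 85.0, 235 and 287 CPM in 200, 276 and 69 cells. The part of these measures in the levels of Prrx1, Foxf2, Foxc1 and Zic1 was not tested.

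In pericytes of the Tbx18 line, Prrx1 was higher in cells that also had UMIs of Nnmt or Rgs16. After physical injury, the 108 pericytes with such a UMI had 494 CPM of Prrx1 (438 to 555) and the 325 without had 149 CPM (125 to 176). After ischemic injury the 32 with had 556 CPM (453 to 675) and the 54 without 223 CPM (158 to 306). In naïve cells the levels were lower on both sides, with 160 CPM (118 to 213) in 36 cells with and 81.6 CPM (66.2 to 99.6) in 190 cells without. The cells with such a UMI were deeper after physical injury, with a median of 4696 UMIs against 1978, and the part of depth was not tested.

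In NG2-line pericytes, where cluster 8 is kept apart by the deposited clusters, the same split gave 119 and 88.8 CPM in naïve, 138 and 97.8 CPM in physically injured and 102 and 101 CPM in ischemic cells. The gap of the other factors was smaller in the Tbx18 line after physical injury, where Zic1 had 362 CPM in cells with and 427 CPM in cells without such a UMI, Tbx18 had 160 and 137 CPM, and Foxc1 had 232 and 173 CPM. With thinning, the share of Tbx18-line pericytes with Prrx1 was 8.52% (5.21 to 13.0) in naïve, 19.3% (15.3 to 23.8) in physically injured and 25.3% (16.0 to 36.7) in ischemic cells, after 3, 81 and 11 cells were left out. Without thinning the shares were 31.4%, 33.9% and 41.9%.

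**Figure D4:**
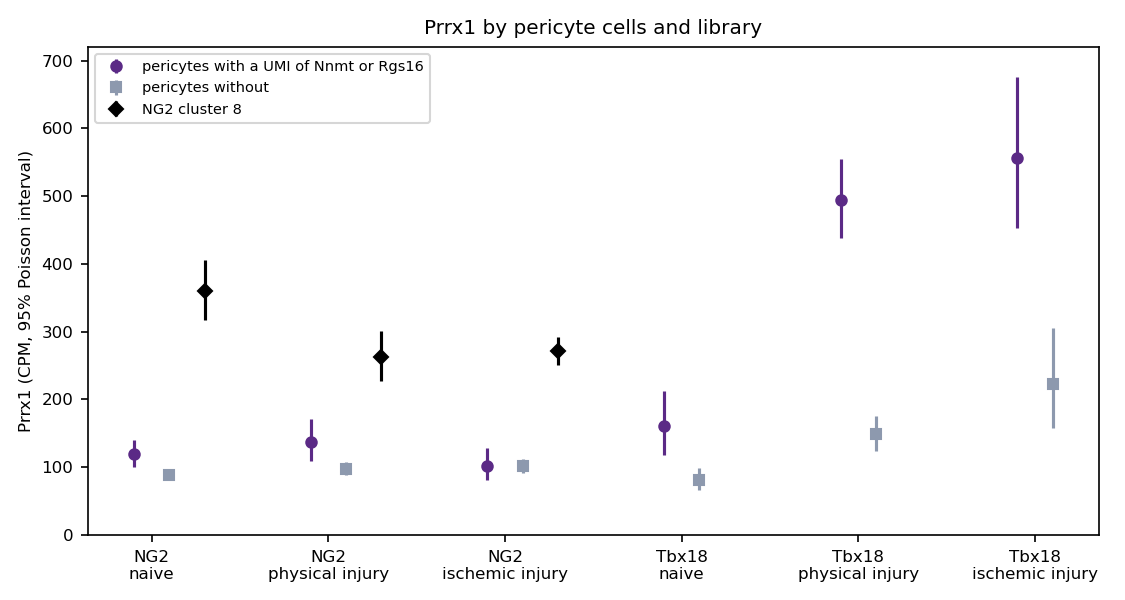
Prrx1 (CPM, 95% Poisson interval) in pericytes of each library with (purple circles) and without (grey squares) a UMI of Nnmt or Rgs16, and in cluster 8 of the NG2 line (black diamonds). The injured pericytes of the Tbx18 line with such a UMI, at 494 and 556 CPM, lie above all other pericytes and above the 262 to 360 CPM of cluster 8.

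In smooth muscle of the Tbx18 line none of the 9 factors was 2-fold from naïve after either injury, where 23.1% and 20.0% of all genes were, in 63 naïve, 827 physically injured and 47 ischemic cells. Foxc1 had 233, 389 and 151 CPM in these. It was 1.67 times (1.39 to 2.03) the naïve level after physical injury, and its ischemic level was 0.389 (0.267 to 0.547) of the physical one, the 1 factor at least 2-fold lower in that contrast, where 20.1% of genes were. Alongside, contractile markers summed to 19264, 30388 and 25181 CPM and pericyte markers to 9022, 3352 and 9216 CPM in these cells, and their part in the level of Foxc1 was not tested. Zic1 was at 308, 197 and 266 CPM, and Tbx18 at 98.0, 91.5 and 156 CPM. With TMM factors, which moved the ischemic over physical ratios by -0.30 (log2), Foxs1 (224 and 128 CPM) was over 2-fold lower as well, at -1.11. The same factors moved the physical over naïve ratios by 0.30, and Foxc1 was then over 2-fold higher after physical injury, at 1.05, while Ebf1 and Mef2c turned from below to above naïve (0.12 and 0.13).

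Between the lines, naïve cells were compared in clusters built on both naïve libraries together, which have their own numbers. Clusters 0, 1, 2, 3, 5 and 8 were taken as pericyte-like and cluster 4 as smooth muscle-like. They held 273 and 47 cells of the Tbx18 line and 3194 and 393 of the NG2 line. Clusters 6, 7 and 9 were left out, though they held pericyte markers too. These summed to 15707 CPM in the 246 Tbx18-line cells of cluster 6, and to 34889 and 21467 CPM in the NG2-line cells of clusters 7 and 9. Cluster 5 was kept, with 3739 CPM of contractile markers in its NG2-line cells. None of the 9 factors was 2-fold apart in either class, where 11.6% and 17.2% of all genes were. Tbx18 was at 127 CPM in the Tbx18 line and 177 CPM in the NG2 line in pericyte-like cells, a ratio of 0.718 (0.616 to 0.831), and at 96.1 and 142 CPM in smooth muscle-like cells, a ratio of 0.675 (0.474 to 0.937). After physical injury, smooth muscle had 91.5 CPM of Tbx18 in the Tbx18 line and 163 CPM in the NG2 line, a ratio of 0.560 (0.496 to 0.633), with none of the 9 factors 2-fold apart, where 4.07% of genes were.

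Tbx18 transcript was lower in the line marked through Tbx18 in these 3 contrasts. In pericytes after physical injury the intervals overlapped, at 146 CPM (127 to 166) against 165 CPM (154 to 176). After ischemic injury Tbx18 was not lower, at 173 CPM against 161 CPM in pericytes, where the intervals overlapped too, and 156 CPM against 126 CPM in smooth muscle. The Tbx18 line carries CreERT2 under Tbx18 control in every library and the NG2 line in none, so the allele and the choice of cells by it cannot be told apart here.

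Ebf1 went the other way in naïve pericyte-like cells, with 2346 CPM in the Tbx18 line and 1459 CPM in the NG2 line, a ratio of 1.61 (1.55 to 1.67). Mef2c was at 924 and 691 CPM, a ratio of 1.34 (1.26 to 1.41), and Foxs1 at 153 and 193 CPM, a ratio of 0.794 (0.691 to 0.908). Foxf2 was at 92.8 and 116 CPM and Zic1 at 619 and 715 CPM. In smooth muscle-like cells Zic1 was higher in the Tbx18 line, at 288 and 209 CPM, a ratio of 1.38 (1.13 to 1.68).

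Cluster 4 of the Tbx18 line, which the study calls vascular-genic pericytes, held 157 naïve, 349 physically injured and 143 ischemic cells, and pericyte markers were high in the naïve cells alone. The 9 pericyte markers summed to 16000 CPM in the naïve and to 142 and 35.3 CPM in the injured cells. The naïve cells also held 7123 CPM of contractile and 2389 CPM of endothelial markers, against 298 and 168 CPM in the naïve pericytes, whose pericyte markers summed to 31638 CPM. Vtn went from 7549 to 37.7 and 9.98 CPM and Pdgfrb from 645 to 22.7 and 12.3 CPM, and Abcc9 had no counts in either injured library, nor had Kcnj8, Higd1b and Notch3 after ischemic injury. The leading genes of the injured cells were others: Slc4a10 was at 182 CPM in naïve and at 1149 and 660 CPM in injured cells, Prg4 at 44.6, 673 and 633 CPM, and Bnc2 at 79.0, 675 and 279 CPM. The cluster is therefore called by its number here.

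Most of the factors were lower in the injured cells. Against naïve cells, 7 of the 9 were at least 2-fold lower after physical injury, where 22.7% of all genes were, and 8 after ischemic injury, where 32.3% were. Ebf1 was at 1092 CPM in naïve, 50.9 CPM in physically injured and 13.1 CPM in ischemic cells, and Tbx2 at 168, 2.20 and 0.768 CPM. Foxf2 was at 103, 4.39 and 0.768 CPM, where the ischemic values of Tbx2 and Foxf2 are 1 count each, and Foxs1 at 189, 4.76 and 3.07 CPM. None of these 4 factors was above 50.9 CPM in the injured cells.

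Foxc1 and Zic1 were lower but still present. Foxc1 was at 299, 104 and 76.0 CPM, with ratios to naïve of 0.349 and 0.255, and Zic1 at 381, 103 and 104 CPM, with ratios of 0.270 and 0.272. Tbx18 was at 75.5, 45.8 and 24.6 CPM and Mef2c at 391, 46.1 and 34.6 CPM. Prrx1 was higher, going from 61.8 to 126 and 123 CPM, a ratio of 2.03 (1.27 to 3.47) and of 1.99 (1.22 to 3.44), and the physical value made it the 1 factor at least 2-fold higher, where 20.8% of genes were.

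Within the injured cells of cluster 4, Foxc1, Tbx18 and Prrx1 were each counted more often in cells with Zic1 than in cells without. After physical injury Foxc1 was counted in 70.6% (61.5 to 78.6) of the 119 cells with a UMI of Zic1 and in 16.5% of the 230 without, and after ischemic injury in 63.4% (46.9 to 77.9) of 41 and 7.84% (3.45 to 14.9) of 102. Tbx18 was counted in 44.5% and 8.26% after physical and in 34.1% and 2.94% after ischemic injury. Prrx1 was counted in 63.0% and 36.1% after physical and in 65.9% and 36.3% after ischemic injury. More cells had Prrx1 without Zic1, 83 and 37, than had both, 75 and 27. Whether Mef2c was counted in the same cells as Zic1 was not examined. In naïve cells Foxc1 was counted in 37 of 74 cells with Zic1 and in 38.6% (28.1 to 49.9) of 83 without. Cells with Zic1 had more UMIs, at medians of 8171 and 5112 after physical and 9348 and 8057.5 after ischemic injury, and the part of depth was not tested. Pericytes of the Tbx18 line had such a gap as well. There, Foxc1 was counted in 51.1% of cells with Zic1 and 21.4% without after physical injury, and in 50.9% and 27.3% after ischemic injury.

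In the naïve, physical and ischemic cells of cluster 4, fibroblast markers summed to 724, 1553 and 3555 CPM, contractile markers to 7123, 4423 and 5497 CPM and myeloid markers to 54.9, 1188 and 1302 CPM, with median depths of 1724, 6756 and 8461 UMIs. Myh11 went from 717 to 49.8 and 1.54 CPM while Tagln was at 2386, 2773 and 3713 CPM. The part of these in the levels of the factors was not tested.

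**Figure D5:**
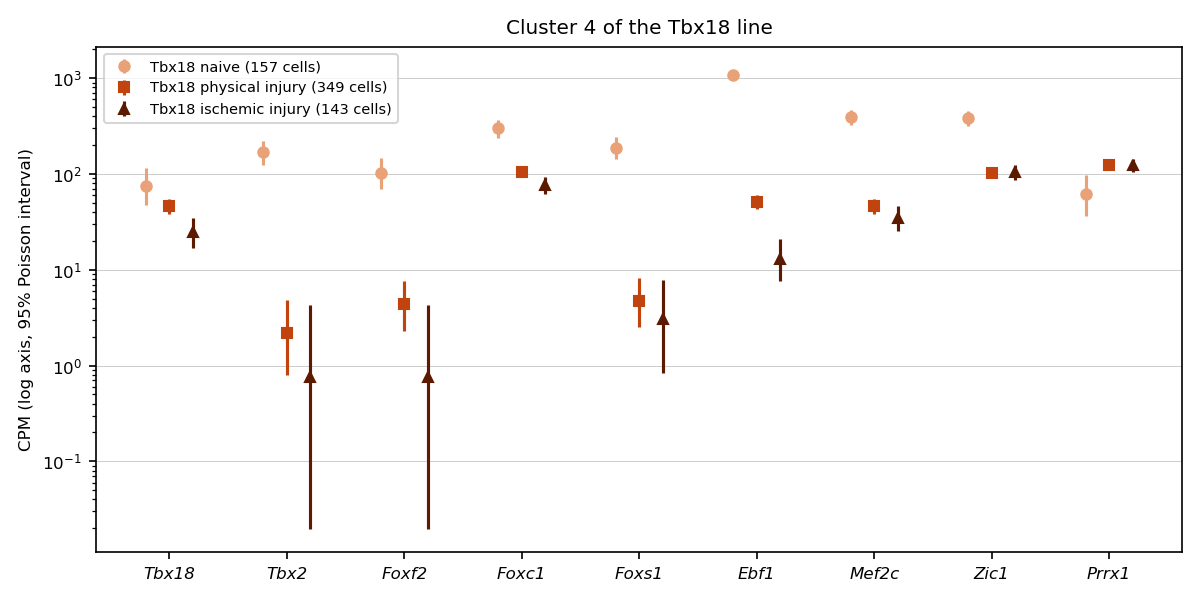
Level of the 9 factors (CPM, log axis, 95% Poisson interval) in cluster 4 of the Tbx18 line in the naïve (157 cells), physical injury (349 cells) and ischemic injury (143 cells) libraries. Tbx2, Foxf2 and Foxs1 fall under 5 CPM in the injured cells, Foxc1 and Zic1 stay between 76.0 and 104 CPM, and Prrx1 lies above its naïve level.

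In endothelial cells, sorted in both lines, Foxf2, Foxc1, Ebf1 and Mef2c lay above the other factors in level. Of these, Ebf1 and Mef2c were lower than in pericytes of the same library. Foxf2 was at 149, 112 and 139 CPM in the naïve, physical and ischemic NG2 libraries and at 181, 136 and 126 CPM in the Tbx18 libraries. These levels lie near those of pericytes in the NG2 line, with ratios of endothelial cells to pericytes of 1.11 (0.975 to 1.26) after physical and 1.18 (1.05 to 1.32) after ischemic injury, and above them in the Tbx18 line, at 2.55 (2.04 to 3.24) after physical injury. Foxf2 was the 1 factor at least 2-fold higher in endothelial cells there, where 15.4% of genes were.

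Foxc1 was nearly level over the endothelial cells of all 6 libraries, at 218 to 243 CPM. Ebf1 was at 800, 993 and 643 CPM in the NG2 line and 1317, 1015 and 1159 CPM in the Tbx18 line, and Mef2c at 280 to 341 CPM. Against pericytes of the same library, 6 and 7 of the 9 were at least 2-fold lower after physical and ischemic injury in the NG2 line, where 18.6% and 17.7% of genes were, and 7 and 7 in the Tbx18 line, where 18.1% and 18.2% were. With TMM factors Ebf1 was under 2-fold lower in all 4 of these contrasts (log2 ratios of -0.70 and -0.87 in the NG2 line, and -0.93 and -0.75 in the Tbx18 line), Mef2c in 1 (-0.75), and Foxf2 passed 2-fold higher after ischemic injury in the Tbx18 line (1.08).

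Tbx18, Tbx2, Foxs1, Zic1 and Prrx1 were at 7.04 to 70.5 CPM in endothelial cells of the NG2 line and at 8.09 to 63.4 CPM in naïve ones of the Tbx18 line, but at 0.0710 to 3.90 CPM in injured ones of the Tbx18 line. All 5 were at least 2-fold lower in the Tbx18 line after either injury, where 3.9% and 5.03% of genes were. Pericyte markers moved the same way: they summed to 5454, 3697 and 3284 CPM in endothelial cells of the NG2 line and to 3883, 357 and 103 CPM in those of the Tbx18 line. Whether pericyte RNA in endothelial droplets takes part in the levels of these 5 factors was not tested.

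Outside the vessel wall, 2 factors had levels of their own. Mef2c was at 1293, 1171 and 693 CPM in microglia of the NG2 line (18, 36 and 164 cells) and at 560 and 635 CPM in injured cells of the myeloid cluster of the Tbx18 line. The 76 naïve cells of that cluster held 22095 CPM of pericyte markers and 17.7 CPM of myeloid markers, so that they do not bear out its name, and they had 169 CPM of Tbx18, 2041 CPM of Ebf1 and 444 CPM of Zic1. Prrx1 was at 135, 154 and 149 CPM in oligodendrocyte precursors of the NG2 line and at 146 and 217 CPM in radial glial precursors of its physical and ischemic libraries, and the ischemic ratio of the latter to the former was 1.46 (1.34 to 1.60). Zic1 was at 3.44 and 4.05 CPM in precursors and at 5.15 and 1.06 CPM in radial glial precursors of those injured libraries.

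The pericyte clusters of the NG2 line differed among themselves in Ebf1. Of the 3 large clusters, cluster 2 had the highest level, at 1755, 2115 and 1702 CPM in the naïve, physical and ischemic libraries, and cluster 1 the lowest, at 1084, 1428 and 881 CPM, a gap of 1.62-fold, 1.48-fold and 1.93-fold. The small cluster 10 stood further out. Its 44, 23 and 43 cells, with median depths of 1929, 2554 and 2061 UMIs, had 5107, 5029 and 3609 CPM of Ebf1, but 46.6, 15.5 and 60.1 CPM of Foxf2, which are 5, 1 and 6 counts, and 103, 77.6 and 90.2 CPM of Foxs1. Its pericyte markers summed to 19159, 16267 and 21132 CPM, against 36214 to 37276 CPM in all pericytes of the line. Malat1 was at 74409, 95379 and 108517 CPM, against 54061, 69158 and 51358 CPM, and the median mitochondrial percent was 3.88, 4.40 and 3.82, against 2.56, 2.83 and 2.31. Their part in these levels was not tested.

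Over 42 units, each a cluster in a library with at least 50 cells, the pairs of factors most alike in their pattern were Tbx2 and Foxs1 (r = 0.980 on log2(CPM + 1)) and Tbx18 and Zic1 (0.965), and the pair least alike was Foxf2 and Prrx1 (0.272). These units share libraries and differ in depth, and the values are descriptions. Among all other genes, Tbx18 was most like Prelp (0.977), Zic4 (0.976) and Tfap2b (0.972), Zic1 like Foxd1 (0.986), Zic4 (0.978) and Nbl1 (0.978), and Foxc1 like A4galt (0.983), Zic2 (0.971) and Arhgap29 (0.970).

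Tbx2 was most like Notch3 (0.989), Slc38a11 (0.987) and Heyl (0.984), and Foxs1 like Heyl (0.984), Tbx2 (0.980) and Kcnmb1 (0.978). Notch3 encodes the Notch receptor of mural cells and Heyl a transcription factor that Notch switches on. Foxf2 was most like Tmem204 (0.984), Apcdd1 (0.968) and Hrct1 (0.955), and Ebf1 like Tbx3 (0.964), Itga1 (0.957) and Bcam (0.954). The likeness was weaker for Mef2c, with Bcar3 (0.933), Stk40 (0.930) and Gcnt2 (0.929), and for Prrx1, with Pde1a (0.934), Gpc6 (0.922) and 1500009L16Rik (0.908).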

How the data were processed

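The authors aligned droplet reads to mouse mm10 with Cell Ranger. The submitters' processing notes give version 7.0.0, and the study gives a range of versions up to 7.0.0 without naming that of each library. The authors filtered cells and clustered them in Seurat, and deposited whole UMI counts per gene and cell in 3 tables (naïve cells, NG2 line, Tbx18 line), with clusters. The percent of mitochondrial transcripts that the authors deposited per cell served only as a filter in an alternative. All value columns were mapped (0 left out).

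Counts were summed per class and library (1 library per group, so no test) and scaled to CPM, with a 95% Poisson interval (exact), and shares have exact Clopper-Pearson intervals after thinning to 1000 UMIs. Ratio intervals came from the exact conditional binomial. Log2 ratios added 1 CPM, genes with at least 10 counts over both groups were tested, and called means at least 2-fold. Intervals cover counting error only. The members and lists (23 relatives, 26 other factors, marker lists) were chosen with earlier results of these data known. All 9 members are named, with the 3 genes most like each by Pearson's r (genes reaching 50 CPM) and at most 3 listed relatives per direction. No doublet caller was run, and cells with most UMIs or with transcripts of other types were left out as alternatives. In simulated data with 200 genes changed 4-fold, 200 of 200 were recovered for pericytes over smooth muscle in the naïve NG2 library (6998 genes) and 199 of 200 for fibroblasts over pericytes (7491 genes). Since every planted change was 4-fold, this does not cover changes near the 2-fold call. A withheld item is not reported here. Promoters were read from RefSeq tables (GRCm38.p6). TMM factors came from edgeR 4.0.16 in R 4.3.3, and all else from scipy 1.17.1, pandas 2.3.3, numpy 2.4.6 and matplotlib 3.10.9 in Python 3.11.15.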

Additional observations from a re-analysis of the deposited data

Results flagged for a closer look

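In 4 of 54 combinations of a factor, a contrast and a mural class, the lines moved in opposite directions with both counting intervals clear of 1, and in 16 they moved the same way. With 1 library per group, the difference was not tested in any of them. The 54 combinations share libraries, and no share over all genes was taken beside them. Whether 4 is more or fewer than among other genes therefore cannot be said.

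Mef2c was higher after physical injury in NG2-line pericytes, at 659 CPM in naïve and 747 CPM in injured cells, and lower in those of the Tbx18 line, at 890 and 711 CPM, so that the log2 ratio of the Tbx18 line minus that of the NG2 line was -0.50. Tbx18 went from 180 to 161 CPM after ischemic injury in NG2-line pericytes and from 125 to 173 CPM in the Tbx18 line, a difference of 0.62 (log2). Ebf1 in smooth muscle went from 1197 to 1339 CPM after physical injury in the NG2 line and from 1535 to 1338 CPM in the Tbx18 line, a difference of -0.36 (log2), and its direction in the Tbx18 line turned with TMM factors (0.12). Tbx18 in smooth muscle was at 163 CPM after physical and 126 CPM after ischemic injury in the NG2 line and at 91.5 and 156 CPM in the Tbx18 line, a difference of 1.13 (log2), where the ischemic class of the Tbx18 line held 47 cells.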

How the results depend on the processing

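No paired analysis was possible because each group has 1 library, and no replicate could be left out. Counts of factors at least 2-fold apart between pericytes and smooth muscle (13 over the libraries) ran from 11 to 13 over the alternatives, and those of fibroblasts and cluster 8 against pericytes (11) from 10 to 11. These alternatives include leaving out the Tbx18 ischemic library and pericytes with contractile transcripts, both chosen after seeing the data. The count for injury in the NG2 line was 0 throughout. The count between ischemic and physical injury went from 1 to 2 with TMM scaling, by the addition of Foxs1 to Foxc1 in Tbx18-line smooth muscle, and to 0 without that smooth muscle (47 ischemic cells), an alternative chosen after seeing the data. The count between the naïve lines went from 0 to 1 with the mean of per-cell CPM, where Foxf2 in 47 smooth muscle-like cells had a log2 ratio of 1.47 against 0.59. The cause was not tested. With TMM scaling the pericyte and smooth muscle count of 11 lacks Zic1 in 2 Tbx18 libraries and Foxf2 and Prrx1 after physical injury, and gains Foxc1 and Foxs1, lower in pericytes of that library. Signs of several ratios under 2-fold turned with TMM scaling, and no ratio of 2-fold or more did. Counting error, few cells in Tbx18-line classes and 1 library per group limit every ratio.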

Other observations

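The small pericyte cluster 10 of the NG2 line also had less Foxc1 and Zic1 than the pericytes as a whole, at 112, 140 and 90.2 CPM of Foxc1 and 354, 202 and 361 CPM of Zic1 in its 44 naïve, 23 physically injured and 43 ischemic cells, where its depth, Malat1 and mitochondrial percent differed as given above.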
